A study of Homo sapiens with 6 samples.

Results

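The 10 integrin subunit genes that epithelial cells typically use (ITGA2, ITGA3, ITGA5, ITGA6, ITGAV, ITGB1, ITGB4, ITGB5, ITGB6 and ITGB8) were followed by RNA-seq in SW1990 cells, a line derived from a human pancreatic adenocarcinoma. The genes were picked by symbol, with earlier results of these data known. They were 10 of the 20345 genes in the deposited table, and were all among the 13551 genes with enough reads to be tested. One group of 3 libraries came from cells with a non-targeting shRNA, and the other group of 3 from cells with an shRNA against LRRC8A, the subunit that no volume-regulated anion channel works without. Cells of both groups had been transduced with pLKO.1 lentivirus and selected with puromycin to give stable lines, so the controls carry the vector and its selection too. The labels describe a single knockdown construct and do not say whether the libraries of a group came from separate transductions, so the p-values measure spread between these libraries only. The comparison sets the integrin mRNAs of cells with lowered LRRC8A against those of control cells. With a single construct, effects of lowered LRRC8A and other effects of that shRNA cannot be told apart.

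Integrins are receptors made of an alpha and a beta chain that bind extracellular matrix outside the cell and couple to the cytoskeleton inside it. In epithelium the alpha6-beta4 pair holds cells to laminin at hemidesmosomes, alpha3-beta1 and alpha6-beta1 also bind laminin, alpha2-beta1 binds collagen and alpha5-beta1 binds fibronectin. The alphaV chain pairs with several beta chains. Of these, alphaV-beta5 is a vitronectin receptor, while alphaV-beta6 and alphaV-beta8 bind latent TGF-beta and release its active form. A chain needs a partner to reach the cell surface, and mRNA levels do not give the amount of each pair.

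LRRC8A itself was read first as a check of the labels. Its level was 81.2, 73.8 and 71.7 CPM in the 3 control libraries and 40.8, 37.8 and 41.6 CPM in the 3 LRRC8A shRNA libraries, where CPM is the count scaled to library size with TMM factors. The groups did not overlap, and the log2 fold change was -0.92 (SE 0.06, edgeR adjusted p = 1.46e-08). Library totals were 37052641 to 42937612 counts. All 7 epithelial markers read (EPCAM, CDH1, KRT7, KRT8, KRT18, KRT19 and CLDN4) reached 1 FPKM, the deposited unit of fragments scaled by gene length and depth. Their summed level was 6522 to 6905 FPKM in controls and 5285 to 5765 FPKM in LRRC8A shRNA libraries, and the part of this difference in the integrin results was not tested. None of 7 fibroblast markers and none of 4 endothelial markers in the table reached 1 FPKM in any library, with COL1A2, DCN and KDR at 0 throughout. Of 7 leukocyte markers CD14 did, with CD3E at 0, and of 3 platelet markers PF4 did, with GP9 at 0. The summed leukocyte level was 1.90 to 2.21 FPKM in controls and 1.53 to 2.16 FPKM in LRRC8A shRNA libraries, and the summed platelet level 2.24 to 2.91 and 1.41 to 2.17 FPKM. Within bulk RNA, fewer cells of a kind and less RNA per cell cannot be told apart.

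The 10 subunits covered a wide range of levels per length. In controls ITGB1, the beta chain shared by most pairs, was the most abundant at 84.3 ± 1.67 FPKM (SD, n = 3), which was 30.4% of the summed level of the 10. It was followed by ITGB4 at 56.2 ± 1.27 FPKM, ITGA6 at 43.1 ± 1.74 FPKM and ITGA3 at 42.7 ± 1.48 FPKM (SD, n = 3 each). The laminin-binding chains thus stood at the top of the order, and the ranges of ITGA6 and ITGA3 overlapped. A middle step held ITGB5 at 17.8 ± 0.558 FPKM, ITGAV at 13.1 ± 0.376 FPKM and ITGA2 at 11.7 ± 0.247 FPKM (SD, n = 3 each). ITGB8, ITGB6 and ITGA5 were lowest, at 3.28 ± 0.132, 2.81 ± 0.329 and 2.22 ± 0.115 FPKM (SD, n = 3 each). Apart from ITGA6 and ITGA3, no neighbours in this order overlapped in controls. In LRRC8A shRNA libraries the order was the same except that ITGA3 and ITGA6, which overlapped, and ITGB6 and ITGB8, which overlapped, changed places. There the ranges of ITGB8 and ITGA5 overlapped as well.

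**Figure D1:**
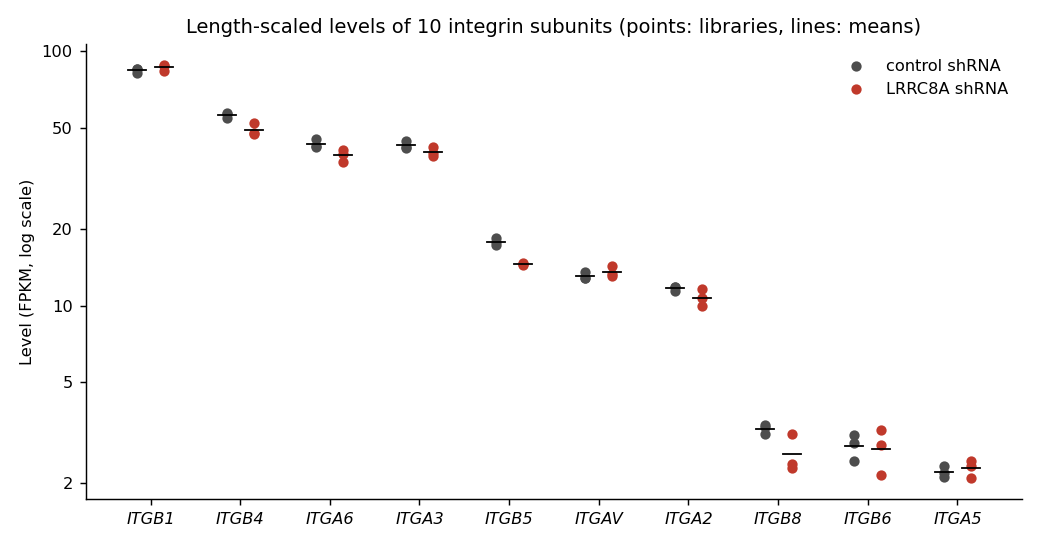
FPKM (log axis) of the 10 integrin subunits, ordered by the control mean, with 1 point per library, grey for control shRNA and red for LRRC8A shRNA, and a line at each group mean. ITGB1 is highest in both groups (84.3 FPKM in controls) and ITGA5 lowest (2.22 FPKM in controls), and the red ITGB5 points lie below the grey ones.

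Of the 10 subunit mRNAs, 2 fell in LRRC8A shRNA libraries, ITGB5 and ITGB4, 0 rose and 8 did not pass the test (edgeR, Benjamini-Hochberg adjusted p under 0.05). Across the 13551 tested genes 590 were called, which is 4.35%, with 350 lower (2.58%) and 240 higher (1.77%). With library totals alone as scaling, 563 were called, 263 lower and 300 higher, and the integrin calls were again ITGB5 and ITGB4, both lower. At an unadjusted p under 0.05, 6 of the 10 passed, where 18.3% of all tested genes did. Of the 10 log2 fold changes 7 were below 0, as were 49.8% of all tested genes. Their median was -0.13, against 0.00079 for all tested genes. The CPM values of the groups did not overlap, with LRRC8A shRNA lower, for 4 subunits (ITGB5, ITGB4, ITGA6 and ITGA3), and for 12.2% of all tested genes. In either direction these 4 compare with 23.6% of all tested genes. As the 10 genes were chosen with earlier results of these data known, the comparisons with all tested genes are no independent evidence. The summed level of the 10 was 272 to 280 FPKM in controls and 258 to 266 FPKM in LRRC8A shRNA libraries.

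**Figure D2:**
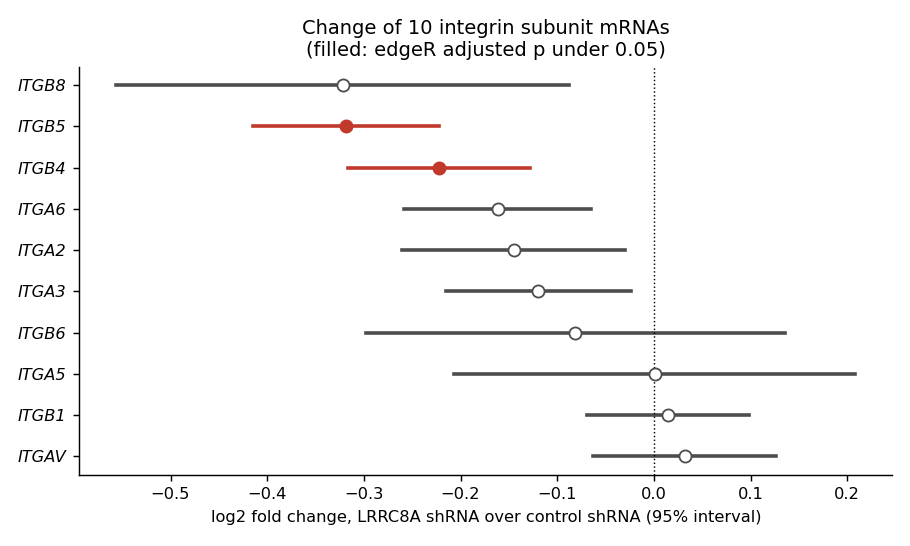
Log2 fold change of each integrin subunit, LRRC8A shRNA over control shRNA, with its 95% interval from the edgeR fit (n = 3 libraries per group). The red filled points, ITGB5 (-0.32) and ITGB4 (-0.22), passed the adjusted threshold, and the open grey points did not, among them ITGB8 (-0.32), which has the widest interval.

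ITGB5, the beta chain of the vitronectin receptor, showed the firmest change of the 10. Its gene (ENSG00000082781) lies in GRCh38 on chromosome 3, from 124761948 to 124901418 on the minus strand, and shares no exonic base with another annotated gene. Its level was 84.5, 88.5 and 86.7 CPM in the control libraries and 68.2, 69.1 and 71.0 CPM in the LRRC8A shRNA libraries. Every LRRC8A shRNA library lay below every control library, and the spread within each group was small. The log2 fold change was -0.32 (SE 0.05, 95% interval -0.41 to -0.22, edgeR adjusted p = 0.000424), which is 19.8% less mRNA with an interval of 14.3% to 25%. An exact two-sided permutation over the 6 CPM values cannot reach below p = 0.1 with 3 libraries on each side, and ITGB5, like every subunit without overlap, had that p.

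ITGB8, which with alphaV presents latent TGF-beta, had the same size of fold change without passing. Its gene (ENSG00000105855; chromosome 7, 20330702 to 20415754, plus strand) shares 98 exonic bases with an antisense gene. Its level was 31.6, 31.5 and 28.8 CPM in controls and 22.5, 21.7 and 29.4 CPM in LRRC8A shRNA libraries. LRRC8A shRNA replicate 3 lay within the control range and the other 2 lay well below it. The log2 fold change was -0.32 (SE 0.11, edgeR adjusted p = 0.129), and without that replicate it was -0.47 (edgeR adjusted p = 0.00158). DESeq2, the other count test used, gave an adjusted p of 0.0454 with all 6 libraries. These were the 2 of 14 alternative fits in which ITGB8 passed. Without any one of the other 5 libraries its edgeR adjusted p was 0.207 to 0.327, and by limma on FPKM it was 0.227 to 0.348.

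ITGB6, the alphaV partner found mainly in epithelium, did not pass. Its gene (ENSG00000115221; chromosome 2, 160099666 to 160200313, minus strand) shares 966 exonic bases with an annotated transcript of the same strand, which may affect its counts. Its level was 13.2, 13.9 and 11.6 CPM in controls and 13.8, 11.7 and 11.1 CPM in LRRC8A shRNA libraries. The groups overlapped, with a log2 fold change of -0.08 (SE 0.10, 95% interval -0.30 to 0.14, edgeR adjusted p = 0.738).

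ITGAV encodes the alphaV chain with which all of these pair (ENSG00000138448; chromosome 2, 186590065 to 186680901, plus strand, with 203 exonic bases shared with an antisense gene). Its level was 108, 104 and 103 CPM in controls and 111, 105 and 106 CPM in LRRC8A shRNA libraries, with overlapping groups. The log2 fold change was 0.03 (SE 0.05, 95% interval -0.06 to 0.13, edgeR adjusted p = 0.772), so a fall of the size of the ITGB5 change lay outside its interval.

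Within each library the level of ITGB5 was then set against the other chains that can pair with alphaV. Its share of the summed FPKM of ITGB1, ITGB3, ITGB5, ITGB6 and ITGB8 was 16.3%, 16.7% and 16.4% in controls and 13.4%, 13.5% and 14.2% in LRRC8A shRNA libraries. The groups did not overlap, with means of 16.5% ± 0.223 and 13.7% ± 0.428 (SD, n = 3 each; exact two-sided permutation p = 0.1, the smallest possible, and 0.15 adjusted over 6 such shares and ratios). The ratio of ITGB5 to ITGAV FPKM was 1.28, 1.43 and 1.39 in controls and 1.02, 1.10 and 1.10 in LRRC8A shRNA libraries (exact permutation p = 0.1, adjusted 0.15). ITGB1 held 77.6% to 78.4% of the same alphaV-partner sum in controls and 80.7% to 81.7% in LRRC8A shRNA libraries, without overlap (exact permutation p = 0.1, adjusted 0.15). As neither ITGB1 nor ITGAV passed the test, these shares and this ratio largely restate the fall of ITGB5 and are no separate evidence. Among ITGB5, ITGB6 and ITGB8 alone, ITGB5 held 72.7% to 76.2% of the FPKM in controls and 72.1% to 73.7% in LRRC8A shRNA libraries, which overlapped (exact permutation p = 0.3, adjusted 0.36). ITGB3 was nearly unexpressed, at a mean of 0.0349 FPKM in controls and 0.0238 FPKM in LRRC8A shRNA libraries.

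The promoters of these 3 beta chains, ITGB5, ITGB6 and ITGB8, are shown because they share a partner, and a link to level or fold change was not tested. Each is given 5′ to 3′ on the strand of the gene, from 250 bases before to 50 bases after a RefSeq start (GRCh38.p14), with matches to the searched words in capitals. ITGB5 has 3 such starts in RefSeq. The most downstream is shown, and the windows at the others had GC contents of 49.7% and 59.7% and 2 GC boxes each. The positions are chr3:124887316-124887615 (minus strand) for ITGB5, chr2:160200223-160200522 (minus strand) for ITGB6 and chr7:20330650-20330949 (plus strand) for ITGB8. The RefSeq start used for ITGB8, 20330900, lies downstream of the annotated gene start at 20330702, so most of its window is inside the gene. The ITGB5 window shown is also inside its annotated gene.
ITGB5: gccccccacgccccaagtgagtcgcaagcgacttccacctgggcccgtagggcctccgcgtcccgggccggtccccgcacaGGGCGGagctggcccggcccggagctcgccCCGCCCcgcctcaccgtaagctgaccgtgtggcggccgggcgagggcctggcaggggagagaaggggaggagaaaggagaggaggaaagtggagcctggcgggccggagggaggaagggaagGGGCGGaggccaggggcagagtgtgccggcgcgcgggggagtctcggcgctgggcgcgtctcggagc
ITGB6: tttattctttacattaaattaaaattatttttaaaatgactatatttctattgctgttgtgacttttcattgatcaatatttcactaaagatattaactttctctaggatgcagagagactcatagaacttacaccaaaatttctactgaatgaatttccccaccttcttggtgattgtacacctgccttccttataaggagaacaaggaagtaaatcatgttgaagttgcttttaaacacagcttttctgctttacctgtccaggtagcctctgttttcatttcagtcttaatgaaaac
ITGB8: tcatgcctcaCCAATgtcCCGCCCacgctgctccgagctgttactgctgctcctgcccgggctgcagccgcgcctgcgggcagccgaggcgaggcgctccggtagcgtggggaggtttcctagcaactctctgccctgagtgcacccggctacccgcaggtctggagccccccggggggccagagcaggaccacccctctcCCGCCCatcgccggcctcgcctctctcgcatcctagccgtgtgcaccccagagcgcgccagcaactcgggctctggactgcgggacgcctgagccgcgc
The words searched on both strands were the GC box GGGCGG, found in 45% of 35116 RefSeq promoters of this length, the CCAAT box (CCAAT, 34.6%), the TATA box (TATAAA, 11.5%) and the AP-1 word TGANTCA (7.71%), none of which overlap in these 3 windows. The ITGB5 window held 3 GC boxes, the ITGB8 window 2 GC boxes and 1 CCAAT box, and the ITGB6 window no match. Their GC contents were 75.7%, 71.7% and 31.7%, where 91.7%, 83.4% and 1.74% of RefSeq promoters had less. The ITGB6 window is thus rich in A and T, and the others shown are rich in G and C. RefSeq promoters were matched for 8 of the 10 genes, and those of ITGB4 and ITGA3 are not shown.

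A further sequence was looked up because it was more frequent among genes that were higher in these data, though most of them lack it. The word GTGTCAC was found in annotated 3′ UTRs (GENCODE 29) of 32.2% of 236 higher genes, 11% of 344 lower genes and 10.3% of 12499 genes that did not pass. It was taken from an earlier analysis of the same libraries, so these shares are no independent evidence. They were not adjusted for 3′ UTR length. Over all 13079 tested genes with an annotated 3′ UTR the share was 10.8%. Among the 10 subunits ITGB8 alone held the word, in 1 of 2 transcripts with an annotated 3′ UTR. Its longest annotated 3′ UTR, of 5757 bases, is also the longest of the 10. The site is shown here with the word in capitals.
ITGB8 site: agtttagcattGTGTCACtacaagggtac
The other 9 subunits, ITGB5 and ITGB4 among them, had no match in the annotated 3′ UTRs.

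**Figure D3:**
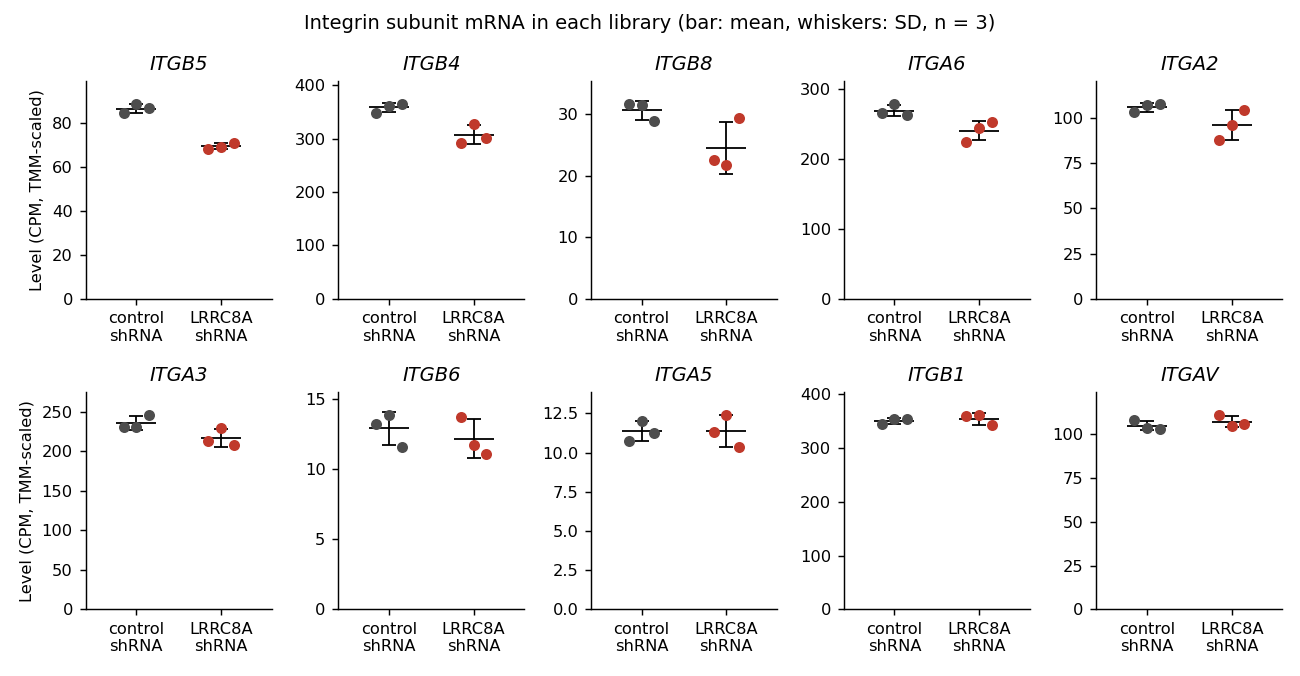
CPM of each integrin subunit in each library (points, grey for control shRNA and red for LRRC8A shRNA) with the mean and SD of each group (n = 3), on axes that start at 0. All red points lie below all grey points for ITGB5, ITGB4, ITGA6 and ITGA3, and for ITGB8 a single red point, replicate 3 at 29.4 CPM, lies among the grey ones.

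ITGB4, which pairs with alpha6 alone and links laminin to keratin filaments through its long cytoplasmic tail, was the other subunit that fell. Its gene (ENSG00000132470) lies on chromosome 17, from 75721328 to 75757818 on the plus strand. Its level was 349, 362 and 365 CPM in controls and 293, 327 and 302 CPM in LRRC8A shRNA libraries. The groups did not overlap, although LRRC8A shRNA replicate 2 came closer to the controls than the others. The log2 fold change was -0.22 (SE 0.04, 95% interval -0.32 to -0.13, edgeR adjusted p = 0.00688), or 14.3% less mRNA with an interval of 8.51% to 19.7%. By limma on log2(FPKM + 1) values ITGB4 did not pass (log2 fold change -0.19, adjusted p = 0.0922), while ITGB5 did (-0.28, adjusted p = 0.0293). The span of ITGB4 overlaps that of GALK1, a galactose kinase gene of the opposite strand, without a shared exonic base, and GALK1 did not pass (-0.08, edgeR adjusted p = 0.685).

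ITGA6 encodes the alpha chain of the same hemidesmosome receptor (ENSG00000091409; chromosome 2, 172427354 to 172506282, plus strand, with exonic bases shared with 3 antisense genes). Its level was 266, 278 and 264 CPM in controls and 225, 245 and 253 CPM in LRRC8A shRNA libraries. The groups did not overlap, and the log2 fold change of -0.16 (SE 0.05, 95% interval -0.26 to -0.06) lay just beyond the threshold (edgeR adjusted p = 0.0533). ITGA6 passed in 4 of 14 alternative fits, among them DESeq2 (adjusted p = 0.0218) and edgeR with no filter on low counts (0.0302). It did not pass with library totals as scaling (edgeR adjusted p = 0.0791), by limma on FPKM (0.218 to 0.288) or without any one of 5 of the libraries (edgeR adjusted p = 0.0717 to 0.221). The ratio of ITGB4 to ITGA6 FPKM was 1.29, 1.25 and 1.37 in controls and 1.29, 1.32 and 1.17 in LRRC8A shRNA libraries. These overlapped, with means of 1.3 ± 0.0572 and 1.26 ± 0.0836 (SD, n = 3 each; exact two-sided permutation p = 0.5, adjusted 0.5), so no change in the balance of the pair was detectable.

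ITGA3, the alpha chain of the laminin receptor alpha3-beta1 (ENSG00000005884; chromosome 17, 50055968 to 50090481, plus strand), had values of 230, 230 and 246 CPM in controls and 213, 229 and 208 CPM in LRRC8A shRNA libraries. The groups did not overlap in CPM, but control replicates 1 and 2 and LRRC8A shRNA replicate 2 were nearly equal. In FPKM the groups overlapped, with control replicate 2 at 41.73 and LRRC8A shRNA replicate 2 at 41.96. The log2 fold change of -0.12 (SE 0.05, 95% interval -0.22 to -0.02) did not pass (edgeR adjusted p = 0.157).

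ITGA2, the collagen-binding chain (ENSG00000164171; chromosome 5, 52989326 to 53094779, plus strand), had values of 103, 108 and 108 CPM in controls and 87.9, 96.1 and 104 CPM in LRRC8A shRNA libraries. The groups overlapped through LRRC8A shRNA replicate 3, and the log2 fold change of -0.14 (SE 0.05) did not pass (edgeR adjusted p = 0.154). ITGB1, the common beta chain (ENSG00000150093; chromosome 10, 32900319 to 33005792, minus strand), shares 42 exonic bases with a gene of the opposite strand. Its values were 344, 354 and 353 CPM in controls and 359, 361 and 342 CPM in LRRC8A shRNA libraries. These overlapped, and the log2 fold change of 0.01 had the narrowest interval of the 10, -0.07 to 0.10 (SE 0.04, edgeR adjusted p = 0.897). The lower end of that interval is 4.70% less ITGB1 mRNA than in controls. Its FPKM stood at 0.740 to 0.751 of the summed FPKM of ITGA2, ITGA3, ITGA5, ITGA6 and ITGAV in controls and at 0.782 to 0.860 in LRRC8A shRNA libraries, without overlap (exact permutation p = 0.1, adjusted 0.15). As ITGB1 did not pass, this ratio largely restates the lower levels of ITGA6, ITGA3 and ITGA2, which did not pass either. It is no separate evidence.

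ITGA5, the fibronectin-binding chain and the lowest of the 10 (ENSG00000161638; chromosome 12, 54395261 to 54419460, minus strand), had 388 to 494 counts per library. It shares 48 exonic bases with an antisense gene. Its level was 10.8, 12 and 11.3 CPM in controls and 11.3, 12.4 and 10.4 CPM in LRRC8A shRNA libraries, which overlapped. The log2 fold change was 0.0011 (SE 0.10, 95% interval -0.21 to 0.21, edgeR adjusted p = 0.997), and changes inside that interval are not excluded. Its ligand gene FN1 was also low, at 0.510 FPKM in controls and 0.374 FPKM in LRRC8A shRNA libraries.

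With single libraries left out, ITGB5 and ITGB4 were the only subunits that passed in every fit, though these fits share most of their libraries. ITGB5 passed in 6 of 6 such fits, with log2 fold changes of -0.30 to -0.34, and ITGB4 in 6 of 6, with -0.19 to -0.27 and an edgeR adjusted p of up to 0.0484 (without LRRC8A shRNA replicate 1). Without LRRC8A shRNA replicate 3, 5 subunits passed, all lower, while over all genes 492 were called, 280 of them lower, against 590 and 350 with every library. The added ones were ITGB8, ITGA6 (-0.20, edgeR adjusted p = 0.0302) and ITGA2 (-0.21, edgeR adjusted p = 0.0386). Leaving out LRRC8A shRNA replicate 1 instead moved ITGA2 the other way, to -0.08 (edgeR adjusted p = 0.478), and ITGA6 to -0.12 (0.221). In LRRC8A shRNA replicate 3 the mRNAs of ITGB8, ITGA6 and ITGA2 were each higher than in the other 2 libraries of the group. LRRC8A was 41.6 CPM there against 40.8 and 37.8 CPM, but 8.13 FPKM against 8.41 and 7.67 FPKM. A link was not tested.

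**Figure D4:**
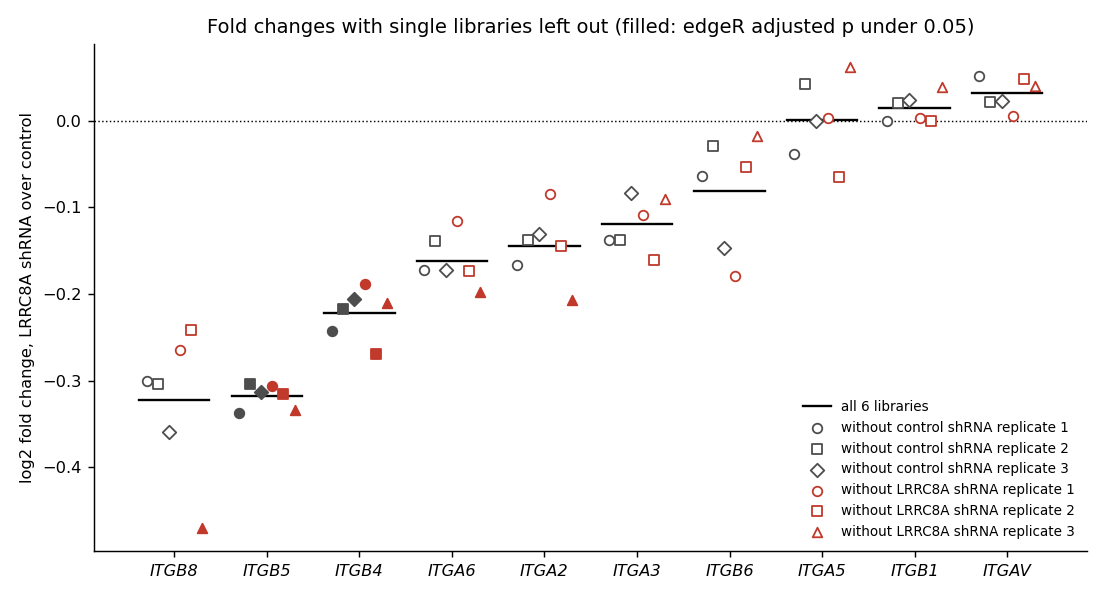
Log2 fold change of each integrin subunit with all 6 libraries (line) and with each library left out in turn (grey for a control library, red for an LRRC8A shRNA library), filled where the edgeR adjusted p was under 0.05. ITGB5 and ITGB4 are filled in all 6 fits, and the red triangles, without LRRC8A shRNA replicate 3, are also filled for ITGB8 (-0.47), ITGA6 (-0.20) and ITGA2 (-0.21).

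The genes around the integrins were read from 7 lists, which held 81 tested genes out of 94. Of the 81, 8 fell and 3 rose, where 2.58% and 1.77% of all tested genes did. The lists too were chosen with earlier results of these data known, so this comparison is no independent evidence. The other integrin subunits, mostly of leukocytes, platelets or mesenchyme, were 16 in number, 9 were tested and 0 passed. The smallest adjusted p was that of ITGAX, a leukocyte chain at 0.0932 and 0.159 FPKM (log2 fold change 0.60, SE 0.41, edgeR adjusted p = 0.469). In these cells 2 of the 16, ITGA7 and ITGAE, reached 1 FPKM in any library. The median log2 fold change of the list was -0.04.

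Among 18 tested matrix ligands 2 fell and 2 rose, with a median of -0.07. THBS1, the matricellular protein thrombospondin-1, was 373, 349 and 392.1 CPM in controls and 221, 278 and 251 CPM in LRRC8A shRNA libraries, and fell without overlap (log2 fold change -0.57, SE 0.09, adjusted p = 0.0195 by edgeR). COL4A2, a basement membrane collagen, fell by 0.26 (SE 0.06, edgeR adjusted p = 0.0237), while LAMB2, a laminin beta chain, rose by 0.27 (SE 0.05, edgeR adjusted p = 0.00479) and NPNT, the integrin ligand nephronectin, by 0.24 (SE 0.07, edgeR adjusted p = 0.0447). The ligands thus moved in both directions. Without control replicate 1 or LRRC8A shRNA replicate 3, THBS1 did not pass (edgeR adjusted p = 0.0560 and 0.109). COL4A2 did not without control replicate 2 or 3 or LRRC8A shRNA replicate 1 (up to 0.122), and NPNT did not when any library other than LRRC8A shRNA replicate 2 was left out (up to 0.187). Neither passed by limma on log2(FPKM + 1) (adjusted p = 0.187 for COL4A2 and 0.160 for NPNT).

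In the list of latent TGF-beta genes 1 of 7 fell, the ligand gene TGFB2, with a median of -0.20. Its level was 7.69, 10.1 and 9.38 CPM in controls and 4.42, 4.82 and 5.02 CPM in LRRC8A shRNA libraries (log2 fold change -0.93, SE 0.13, adjusted p = 0.000346 by edgeR). TGFB2 was thus low, with means of 1.57 FPKM in controls and 0.836 FPKM in LRRC8A shRNA libraries. TGF-beta2 has a propeptide without the RGD motif by which alphaV-beta6 and alphaV-beta8 bind the other forms. TGFB1, which has the motif, was at 40.8 and 42.5 FPKM and did not pass (0.03, SE 0.06, edgeR adjusted p = 0.842).

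Of 7 hemidesmosome and tetraspanin partners 2 fell, both tetraspanins, with a median of -0.15. CD81 was 239, 238 and 228 CPM in controls and 204, 209 and 204 CPM in LRRC8A shRNA libraries (log2 fold change -0.19, SE 0.04, edgeR adjusted p = 0.00933), and CD9 fell by 0.19 (SE 0.04, edgeR adjusted p = 0.0134). CD151, the tetraspanin that binds alpha3-beta1 and alpha6-beta4 directly, did not pass (log2 fold change -0.0012, SE 0.04, edgeR adjusted p = 0.993). PLEC, the plectin gene that ties the beta4 tail to keratins, did not pass either (-0.15, SE 0.04, edgeR adjusted p = 0.0549). Without control replicate 1 or 2, CD81 did not pass (edgeR adjusted p = 0.0635 and 0.0539), nor did CD9 without control replicate 2 or 3 or LRRC8A shRNA replicate 1 (up to 0.0685). By limma on log2(FPKM + 1) neither passed (adjusted p = 0.102 for CD81 and 0.139 for CD9).

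Of 22 tested activators and adaptors 1 fell, with a median of -0.0045. It was TNS4, a tensin that binds beta1 tails, at 500, 516 and 487 CPM in controls and 342, 417 and 385 CPM in LRRC8A shRNA libraries (log2 fold change -0.39, SE 0.06, edgeR adjusted p = 0.00479). It did not pass once LRRC8A shRNA replicate 3 was left out (0.0549). Of 11 inhibitors and tail-binding regulators 0 passed, with a median of 0.05, and the smallest adjusted p was that of the endocytic adaptor gene NUMB (0.16, SE 0.05, edgeR adjusted p = 0.0646).

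Of 7 co-receptors 2 fell and 1 rose, with a median of -0.01. SDC4, a syndecan that acts with alpha5-beta1 on fibronectin, was 245, 253 and 259 CPM in controls and 189, 195 and 204 CPM in LRRC8A shRNA libraries. The groups did not overlap, and SDC4 fell with a log2 fold change of -0.37 (SE 0.04) and an edgeR adjusted p of 4.88e-05, and passed in 6 of 6 fits without a library. PLAUR, the urokinase receptor, fell by 0.32 (SE 0.06, edgeR adjusted p = 0.00599, and 0.0529 without control replicate 1). SDC1, another syndecan, rose by 0.23 (SE 0.05, edgeR adjusted p = 0.0105), and did not pass without control replicate 1 or 2 (0.0936 and 0.0559) or by limma on log2(FPKM + 1) (0.0647). The 2 syndecans thus moved in opposite directions.

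**Figure D5:**
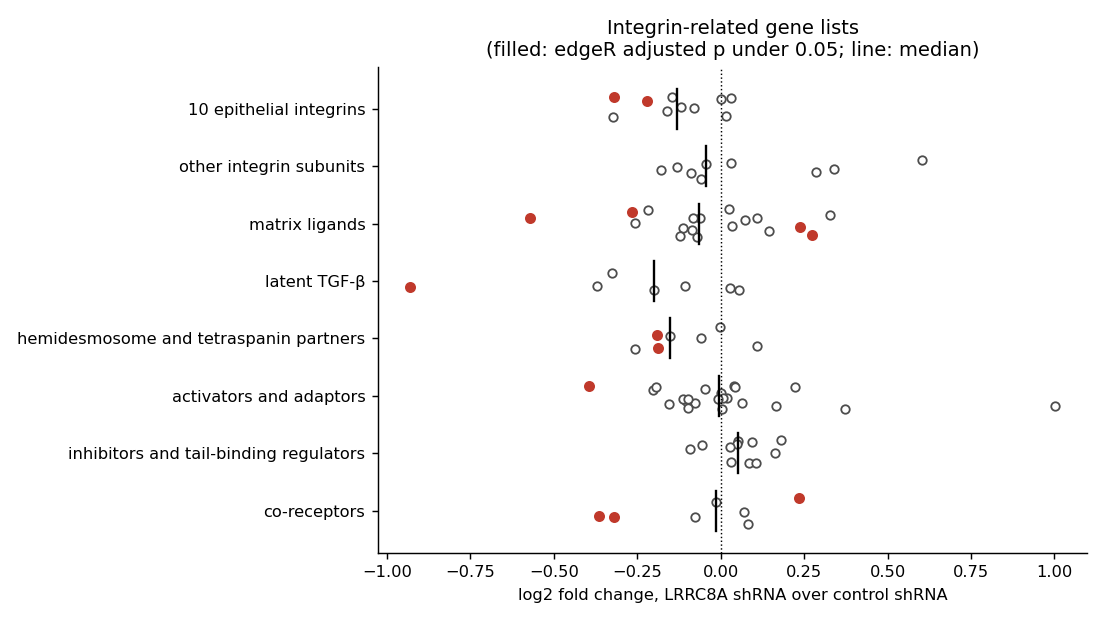
Log2 fold changes of the 10 epithelial integrins (top row) and of the tested genes of each related list, LRRC8A shRNA over control shRNA, with a line at the median and filled red points for edgeR adjusted p under 0.05. Filled points lie on both sides of 0 for matrix ligands and co-receptors, and the point farthest to the left is TGFB2 (-0.93).

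The genes whose profile over the 6 libraries was nearest to that of ITGB5 were KIF21B, a kinesin, PRRX1, a homeobox transcription factor, and AEN, an exonuclease. Nearness was the Euclidean distance between log2 CPM values centred on each gene's mean, over 13541 other genes, and was 0.0582, 0.0602 and 0.0713. For ITGB4 they were FBXW9, an F-box protein, MYC, a growth-promoting transcription factor, and CCND1, cyclin D1, at distances of 0.0490, 0.0507 and 0.0553. Their log2 fold changes were -0.29 for KIF21B, -0.30 for PRRX1, -0.28 for AEN, -0.24 for FBXW9, -0.20 for MYC and -0.25 for CCND1. Fold changes like those of ITGB5 and ITGB4 follow from choosing genes by nearness in the same libraries. Shared regulation was not tested. Of the 6, PRRX1, AEN, MYC and CCND1 passed (edgeR adjusted p = 0.000938, 0.000754, 0.00933 and 0.00299) and KIF21B and FBXW9 did not (0.196 and 0.172). MYC did not pass without control replicate 3 (0.0518) or LRRC8A shRNA replicate 1 (0.0577), or by limma on log2(FPKM + 1) (0.114).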

How the data were processed

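Per the submitters' processing notes, the tools were StringTie 2.2.3, HISAT2 2.2.1 and fastp 0.23.2, and GRCh38 and mm10 appear as builds with no role stated. Which program counted reads, and on which strand, is not given in the sources used here. The kit was a stranded mRNA kit per the labels' protocols. The deposited table held raw counts, FPKM values and TPM values per gene, with FPKM and TPM normalized by the authors. Start and end in that table matched GENCODE 29 (GRCh38) exactly for 100 of 19511 shared genes and 0 of the 10 integrins, so positions are from GENCODE 29.

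Counts were filtered with filterByExpr, scaled by TMM and tested with the robust quasi-likelihood F-test of edgeR 4.0.16 in R 4.3.3, with no covariate. P-values were two-sided, adjusted by Benjamini-Hochberg across 13551 genes and called under 0.05. SEs were obtained as the log2 fold change divided by the square root of F. Scripts were tested on simulated counts. Within-library shares and ratios used FPKM, and all 6 were tested by two-sided exact permutation with Benjamini-Hochberg adjustment over the 6. Alternatives were each library left out, a replicate block, DESeq2 size factors, library totals, DESeq2 1.42.0, no filter on low counts (at least 1 read), a threshold of 0.01, and limma 3.58.1 with a trend on log2(FPKM + 1), where 3 or more libraries had to reach 1 FPKM, on log2(FPKM + 0.1), and without that filter. TPM replaced FPKM for the shares.

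The members and lists were chosen with earlier results of these data known. From each list the text names the genes past the threshold, at most 4, or the one with the smallest adjusted p. It also names the 3 genes nearest in profile to ITGB5 and to ITGB4. FN1, TGFB1, CD151, PLEC, GALK1 and ITGB3 were added as ligands, partners or neighbours, after their values were seen. Promoter sequences are from RefSeq (GRCh38.p14).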

Additional observations from a re-analysis of the deposited data

How the results depend on the processing

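The fall of ITGB5 was called in 13 of 14 alternative fits and that of ITGB4 in 11 of 14, with unchanged direction in all of them. The exceptions were limma without a filter for ITGB5 (adjusted p = 0.0771), and the 3 limma fits for ITGB4 (0.0922, 0.0938 and 0.162). The number of subunits called was 2 to 5 without single libraries, 4 with DESeq2, and 1, 1 and 0 with limma on log2(FPKM + 1), on log2(FPKM + 0.1) and without a filter. The cause was not tested. Over all genes 246 to 504 were called without single libraries, 660 by DESeq2, 157, 154 and 18 by the 3 limma fits in that order, and 222 at an adjusted p under 0.01. Of the integrin-related and profile genes that passed, SDC4 alone did so by limma without a filter (adjusted p = 0.0487), and on log2(FPKM + 0.1) CCND1 was lost (0.0506) as well as those lost on log2(FPKM + 1). ITGA5 and ITGB1, which did not pass, changed sign: without single libraries ITGA5 ranged from -0.065 to 0.062 and ITGB1 from -0.00058 to 0.039, and ITGA5 was -0.00040 with the replicate block and -0.00022 with no filter on low counts. The difference in the ITGB4 to ITGA6 ratio, -0.04 with all libraries, ranged from -0.076 to 0.0034 without single libraries, and that of the ITGB5 share, -2.79 percentage points, from -3.04 to -2.64, and TPM gave the same differences as FPKM.

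The replicate block called 671 genes and 3 of the 10 subunits, adding ITGA6 (edgeR adjusted p = 0.0401), and THBS1 did not pass with it (0.0676). Nothing in the labels says that equal replicate numbers share a culture or a day. Deviations of same-numbered libraries correlated at 0.0277, -0.0890 and 0.0051, and 1 of 6 libraries correlated best with its own number, so the block is not read as a pairing. With 388 to 15657 counts per subunit and library, the lowest subunits (ITGA5 and ITGB6) had SEs of 0.10, and changes inside their intervals are not excluded.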

Other observations

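ITGAE, the alpha chain known from mucosal T cells, was the one leukocyte-type integrin chain at a level near that of the epithelial chains, at 15 FPKM in both groups (log2 fold change -0.06, SE 0.10, edgeR adjusted p = 0.803). Its usual partner ITGB7 was at 0.457 FPKM in controls and 0.527 FPKM in LRRC8A shRNA libraries. CD3E, a T cell marker, was at 0 in all 6 libraries. ITGAE was singled out after its values were seen.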
